A study of Mus musculus with 2 samples.

Results

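Interferon-responsive microglia were taken as the singlet cells that held at least 4 summed UMIs of 5 interferon-stimulated genes, Ifit1, Ifit2, Ifit3, Isg15 and Usp18. A UMI is a molecular tag that counts 1 captured RNA molecule, and a singlet is a cell that carries a single hashtag. The cells were therefore chosen by measured values, and 61 of 7903 singlets (0.772%) were selected, which left 7842 other singlets. Below, "selected cells" are these 61 cells, and the 5 genes are called the selecting genes.

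The cells came from brains of 12-week-old mice that carried 1 copy of Cx3cr1CreERT2(Litt), an allele in which the microglial gene Cx3cr1 drives a Cre recombinase that tamoxifen switches on. All groups carried this allele, so no group lacked the Cre, and the study's 2 treatments were oil, the vehicle, and tamoxifen (TAM), which the labels give as lasting 4 weeks. After perfusion with PBS, CD11b+ CD45+ Ly6G- CD206- cells were sorted and run as 1 droplet pool with the 10x 3′ v3.1 chemistry. The pool had 5 oil and 5 TAM hashtags that held 619 to 935 singlets each. The hashtag was the replicate. Whether 1 hashtag stands for 1 animal is not stated, and p-values therefore cover hashtag-to-hashtag variation alone, part of which may be technical. Levels are given per 1000000 UMIs, shortened to UPM. The samples of the series are the expression library and the hashtag library of this pool, and shared barcodes link them.

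Type I interferons are secreted proteins that warn cells of viral or displaced nucleic acid. They bind the receptor pair Ifnar1 and Ifnar2, whose kinases Jak1 and Tyk2 activate STAT proteins, among them Stat2, which act with Irf9 at interferon-stimulated response elements (ISREs) in promoters. Small groups of microglia with such a response are known from healthy, ageing and injured brain. Ifit1, Ifit2 and Ifit3 are RNA-binding antiviral proteins, Isg15 is a ubiquitin-like modifier, and Usp18 removes Isg15 from proteins and dampens the receptor.

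The promoter sequences of the selecting genes come first, since the response acts through elements in them. On build GRCm38, Ifit1 lies at chr19:34640871-34650009, Ifit2 at chr19:34550694-34576419 and Ifit3 at chr19:34583531-34588731, all on the plus strand of 1 gene cluster. Isg15 lies at chr4:156199424-156200818 on the minus strand and Usp18 at chr6:121245906-121270917 on the plus strand. All are protein-coding genes in the GENCODE annotation. The ISRE-type string searched was GAAANNGAAA on either strand, in the 300 bases from 250 before to 50 after each RefSeq start site (RefSeq, build GRCm38.p6). Overlapping matches were kept. Capitals in the sequences mark these matches, and each sequence runs 5′ to 3′ along the gene from 160 to 31 bases before the start. Rsad2 and Bst2, which were not used in the selection, are shown beside the selecting genes as examples of genes that hold the string.
Ifit1, chr19:34640729-34640858, plus strand: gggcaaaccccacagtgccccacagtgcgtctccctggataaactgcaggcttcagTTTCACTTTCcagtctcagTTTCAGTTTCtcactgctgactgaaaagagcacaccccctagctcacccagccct
Ifit3, chr19:34583369-34583498, plus strand: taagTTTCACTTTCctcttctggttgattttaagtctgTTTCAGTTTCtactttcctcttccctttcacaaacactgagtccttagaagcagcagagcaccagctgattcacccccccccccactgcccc
Isg15, chr4:156200849-156200978, minus strand: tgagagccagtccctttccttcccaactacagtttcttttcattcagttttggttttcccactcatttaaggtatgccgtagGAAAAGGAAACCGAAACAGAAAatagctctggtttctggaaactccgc
Ifit2, chr19:34550534-34550663, plus strand: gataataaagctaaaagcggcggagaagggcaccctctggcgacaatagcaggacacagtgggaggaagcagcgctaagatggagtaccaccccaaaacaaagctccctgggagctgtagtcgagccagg
Rsad2, chr12:26456483-26456612, minus strand: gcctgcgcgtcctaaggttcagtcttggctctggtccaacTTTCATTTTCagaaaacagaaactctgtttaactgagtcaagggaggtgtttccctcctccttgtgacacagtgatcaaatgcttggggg
Bst2, chr8:71537503-71537632, minus strand: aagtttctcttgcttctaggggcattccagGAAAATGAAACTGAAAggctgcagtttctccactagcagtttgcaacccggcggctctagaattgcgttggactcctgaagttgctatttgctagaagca

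Ifit1 and Ifit3 each held 2 matches, read on the opposite strand, and Isg15 held 3 overlapping ones between 78 and 57 bases before its start. Neither of the 2 listed promoters of Ifit2 held the string, which says only that these letters are not in the window. Usp18 had no entry in the promoter table. Of the 9572 genes tested against the other singlets below, 7627 had a promoter, and 3.75% of these genes held the string in at least 1 promoter. Among the 211 genes higher in the selected cells, 172 had a promoter and 44 of them (25.6%) held it. Those without it include Oasl2, Irf7, H2-K1, H2-D1, Tap1 and Ccl12. Of the 39 lower genes, 29 had a promoter and 2 (6.90%) held it, and over all 27025 genes of the table the share was 3.99%. A match is a description of letters, not a measured binding site.

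**Figure D1:**
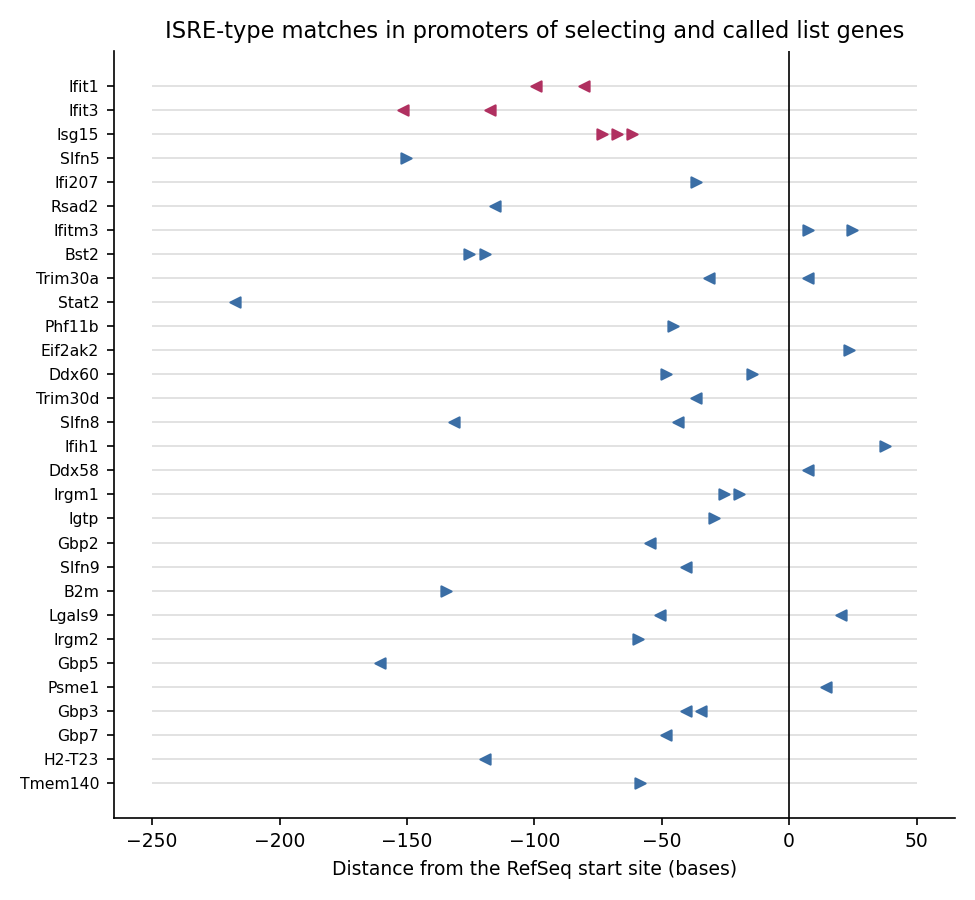
Position of each ISRE-type match (triangles, pointing along the strand that reads GAAANNGAAA) relative to the RefSeq start site, in bases, for selecting genes (red) and for listed genes called in the selected cells (blue). The matches of Isg15, Rsad2 and Bst2 lie upstream of the start, whereas those of Ifitm3, Eif2ak2 and Ifih1 lie after it. Genes without a match are not drawn.

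The selecting genes were nearly silent in most cells. Of 7903 singlets, 7355 held none of their UMIs, 408 held 1, 57 held 2 and 22 held 3, just outside the threshold. At the threshold itself, 12 cells held exactly 4, and the highest cell held 69. The selected cells had a median of 8 summed UMIs (quartiles 5 and 14), 25 of them held 10 or more and 12 held 20 or more. They held 833 of the 1421 UMIs of the selecting genes in all singlets (58.6%), and the 10 highest cells alone held 415.

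**Figure D2:**
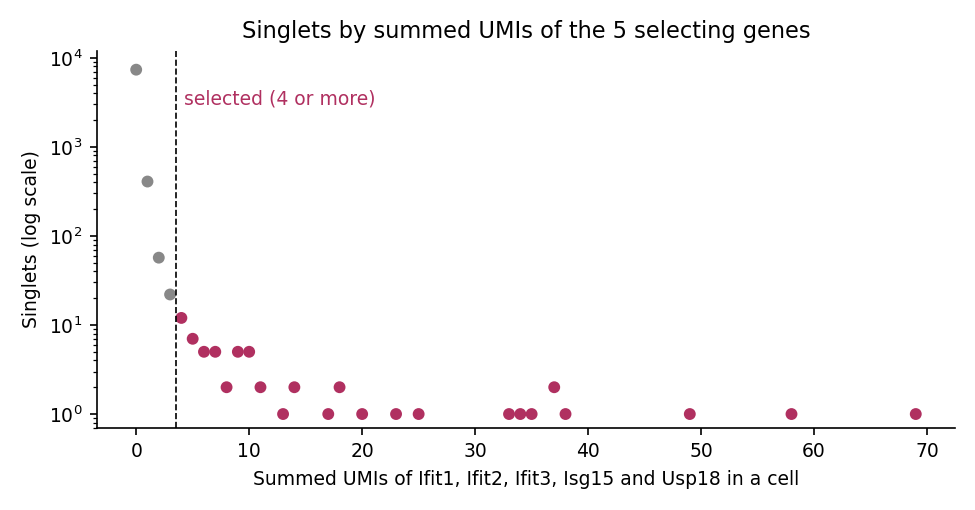
Number of singlets (log scale) against the summed UMIs of the 5 selecting genes in a cell. Grey points are cells under the threshold, red points the 61 selected cells, which run from 4 to 69 UMIs without a gap at the threshold.

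By the way the cells were chosen, each selecting gene was high in them, and the values that follow are a description without a test. Ifit3 had a UMI in 51 of the 61 selected cells (83.6%, exact 95% interval 71.9 to 91.8) and in 1.10% of the other singlets. Isg15 had one in 50 selected cells (82.0%) and in 2.84% of the others, Usp18 in 43 (70.5%) and 1.5%, Ifit2 in 41 (67.2%) and 1.06%, and Ifit1 in 31 (50.8%) and 0.370%. Reads of Ifit3 may be split with its near-identical copy Ifit3b, which had a UMI in 25 selected cells and in 15 others. The shares in other singlets include any RNA free in the droplets, and the depths were alike, at a median of 5343 UMIs in selected cells and 4915 in the others. A total of 15 selected cells held all 5 genes, 15 held 4, 20 held 3, 10 held 2, and 1 cell was selected on Isg15 alone. The 12 cells at 4 summed UMIs and the 22 at 3 lay close together, with Isg15 at 243 and 134 UPM, Ifit3 at 108 and 151, and Slfn5, which was not used to select, at 81.0 and 67.1. Removing Isg15 from the sum would drop 16 cells and removing Ifit1 would drop 6.

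The strongest cells were unevenly spread over the hashtags. Oil3 gave 6 of the 10 cells with the highest sums, TAM1 gave 2, and Oil4 and TAM3 1 each. The 8 selected cells of Oil3 had a median of 36 summed UMIs, and the medians of the other hashtags lay between 5 and 9.5.

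The label was checked on Oasl2, an antiviral oligoadenylate synthetase-like protein, and Slfn5, a Schlafen family protein, neither of which was used to select. Both belong to the label's own marker list, which was drawn up with earlier results of these data known. The check is therefore not independent of these data. At least 1 of them had a UMI in 52 of the 61 selected cells and in 184 of the other singlets (2.35%). Both were present in 33 selected cells, and neither in 9, of which 7 lay among the 19 cells with 4 or 5 summed UMIs. All selected cells held at least 7 of 10 microglial markers, such as P2ry12 and Tmem119, and 59 held at least 8. Hashtag doublets reached the threshold in 23 of 1716 (1.34%), against 0.772% of singlets. Their median depth was 5803.5 UMIs, and no doublet caller was run beyond the hashtags. From the hashtag doublets, about 194 same-hashtag doublets were expected among all singlets (2.46%). Above 10000 UMIs lay 1 selected cell (1.64%) and 58 others (0.740%). Depth cannot tell doublets of such a median from single cells, so the part of doublets among the selected cells was not tested.

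Summed markers of monocytes and of CNS-associated macrophages stood at higher levels in the selected cells than in the other singlets, a description with no test. Of 8 monocyte markers, Ly6c2, Fn1, Chil3 and Ly6i were at 0, and the list held 30 UMIs, or 91.0 UPM (0 to 172 over the 10 hashtags), against 15.3 UPM in the others (6.20 to 32.5). Most of it was Plac8 (15 UMIs in 8 cells) and Ms4a4c (12 UMIs in 10 cells), and Ms4a4c also belongs to the antiviral list. Of 8 markers of CNS-associated macrophages, Cd163, Lyve1 and Cbr2 were at 0, and the list held 54 UMIs, or 164 UPM (0 to 5106 over the 10 hashtags), against 511 UMIs, or 13.004 UPM, in the others (4.83 to 29.5). The only selected cell of Oil5 and 1 of the 2 of TAM2 each held 5 of these markers, with 19 and 21 UMIs, and also 7 and 8 of the 10 microglial ones. They had 7 and 11 UMIs of Mrc1, which encodes the CD206 that the sort excluded, 57 and 147 of the class II invariant chain Cd74, and 203 and 358 of the lipid carrier Apoe. Both hashtags lay outside the comparison that follows. Another cell, of TAM4, held 12 UMIs of Mrc1 and is inside it, and without TAM4 229 genes in place of 250 passed. The share without the marker-rich cells of Oil5 and TAM2, and Cd74 and H2-Ab1 with all hashtags, are given below. Otherwise the part of these cells in the results was not tested. Of 6 neutrophil and 7 dendritic cell markers, 5 and 5 were at 0, and of 9 lymphocyte markers 7 were at 0.

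The selected cells were then compared with the other singlets within each hashtag, over genes that the selection had not used. Counts were summed per hashtag and class, and the 8 hashtags with at least 5 selected cells (58 cells) entered, while Oil5 with 1 and TAM2 with 2 were left out. Selected-cell sums held 25131 to 57586 UMIs and the others 3260125 to 4805299, so the selected side sets the precision. By edgeR's quasi-likelihood test with Benjamini-Hochberg adjustment, 250 of 9572 genes (2.61%) passed an adjusted p of 0.05, of which 211 were higher (2.2%) and 39 lower (0.407%) in the selected cells. At an unadjusted p under 0.05 there were 990. The split rests on the scaling and on the tool. With TMM factors over all tested genes in place of abundant genes only, the same test called 164 higher and 265 lower, and the median change over all genes moved from -0.05 to -0.29 on the log2 scale. The fit first planned, which also lacked the robust prior, called 169 higher and 271 lower. DESeq2 called 258 higher and 9 lower of 13315 genes. Falls were also harder to call than rises. In simulated counts the main fit recovered 28 of 50 genes doubled in the selected cells and 16 of 50 halved ones. None of the called genes named below changed sign under another scaling.

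**Figure D3:**
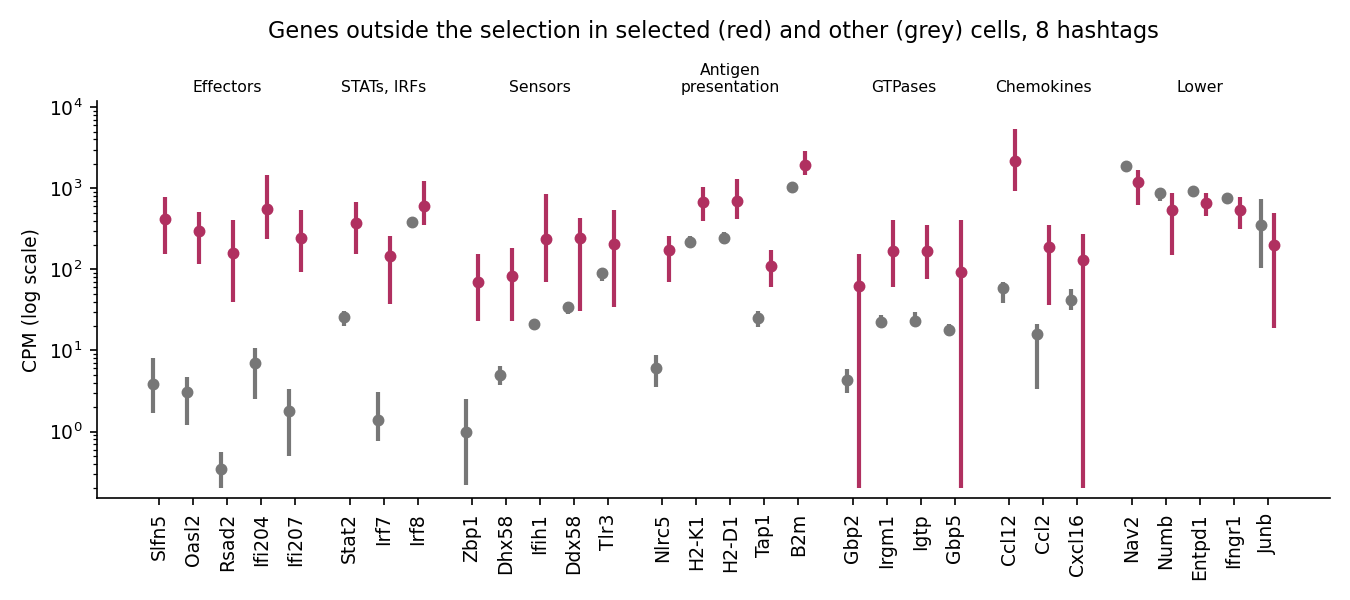
CPM (log scale) of genes outside the selection in the selected cells (red) and the other singlets (grey). Points are means and lines the range over 8 hashtags, and lines that reach 0 are drawn down to 0.2 CPM. Slfn5, Stat2, Ccl12 and B2m lie above every other-singlet value in every hashtag, while Gbp2, Gbp5 and Cxcl16 reach 0 in at least 1 hashtag.

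Among the lists, antiviral effectors held the most higher genes, and it is also the longest list. Of 68 listed genes 66 are in the matrix and 47 were tested, and 43 were higher, none was lower and 4 did not pass, with a median log2 fold change of 2.98 against -0.05 over all genes tested. Of the 47 genes, 12 would not have passed the filter on low counts through the other singlets alone. Such genes are said here to have passed only through the selected cells, and the filter favours those higher there. Over all genes tested, 375 passed so, and 32 of them were called higher. Among the 35 that passed through the other singlets alone, 31 were higher (against 179 of 9197 over all genes that passed so), with a median of 2.61. The list was drawn up from known interferon-stimulated genes with earlier results of these data in view. It shares members with other lists below, among them Stat2, Irf7, Irf9, Ifih1 and Trim30a.

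Slfn5 had 159, 382 and 753 UPM at the lowest, median and highest hashtag in the selected cells, and 1.69, 2.94 and 8.18 in the others. The groups did not overlap, and the log2 fold change was 6.71 ± 0.28 (SE, n = 8 hashtags, edgeR adjusted p = 2.9e-119). Oasl2 ran from 117 through 235 to 516 UPM against 1.23, 3.09 and 4.75, a log2 fold change of 6.51 ± 0.31. Both had passed the filter only through the selected cells, as had Rsad2, Ifi204, Ifi207 and Irf7, so their direction carries no weight of its own. Rsad2, or viperin, which makes a chain-ending nucleotide, had a log2 fold change of 8.59 ± 0.42 and 49 UMIs in 20 selected cells, against 13 UMIs in 13 of 7842 others. The DNA-binding PYHIN proteins Ifi204 and Ifi207 had log2 fold changes of 6.21 ± 0.27 and 7.02 ± 0.33, and reads within this family may be split between near-identical copies. Ifi204 stood at 1473 CPM in Oil3 and at no more than 612 CPM in any other hashtag.

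The effectors that did not pass were Pnp, Irf9, Sp140 and Uba7. Irf9, the DNA-binding subunit of the interferon-stimulated complex, had a log2 difference of 0.82 ± 0.41 (adjusted p = 0.46), and Pnp, a purine enzyme, one of 0.16 ± 0.19 (adjusted p = 0.88). The remaining 19 genes in the matrix were too low to test. They include the oligoadenylate synthetases Oas1a (26 UMIs in 22 selected cells, 122 in 110 others), Oas2 (10 in 7, against 12 in 12) and Oasl1 (15 in 10, against 14 in 9). Ifi44l had no UMI in any singlet. These untested genes were picked out after their values were seen.

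Of 10 STAT and IRF genes tested, 4 were higher and 6 did not pass, with a median log2 fold change of 0.70. Of the 9 that passed the filter through the other singlets, 3 were higher, with a median of 0.57. Stat2 ran from 156 through 351 to 645 UPM in selected cells and from 20.3 through 26.6 to 31.7 in the others, without overlap. Its log2 fold change was 3.81 ± 0.25 (n = 8 hashtags, edgeR adjusted p = 3.4e-50). Irf7, the factor that amplifies interferon production, was called at 6.58 ± 0.38. Irf8, a lineage factor of microglia, had a log2 difference of 0.57 ± 0.15 (adjusted p = 0.0085), and this call was lost without TAM4 (0.37, adjusted p = 0.35) or TAM5 (0.54, adjusted p = 0.061) and with TMM over all genes (0.33, adjusted p = 0.24) and with DESeq2 (0.56, adjusted p = 0.15). Irf2 and Irf5 had log2 differences of 0.21 ± 0.18 and 0.16 ± 0.23 and did not pass.

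Ligands and receptors showed no comparable pattern. No UMI of the 9 listed interferon genes was found in any of the 61 selected cells, which for Ifnb1 or Ifnk allows a share of cells with a UMI of up to 5.87% (exact 95% interval, counting error only). Among the 7842 other singlets, 1 cell held Ifnb1 (2 UMIs) and 1 held Ifnk, and no UMI of the other seven was seen. All 7 receptor and kinase genes were tested, and none was higher. Ifnar2 stood at a log2 difference of -0.01 ± 0.18 and Jak1 at 0.18 ± 0.19, and neither passed. Ifngr1, a chain of the interferon-gamma receptor, was called lower (log2 difference -0.51 ± 0.14, adjusted p = 0.016), with 301, 548 and 796 UPM in selected cells against 729, 771 and 795. The groups overlapped, and the call was lost without Oil3 (-0.43, adjusted p = 0.13) or TAM1 (-0.48, adjusted p = 0.068) and with DESeq2 (-0.51, adjusted p = 0.062).

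Of 10 nucleic acid sensors tested, 6 were higher and 4 did not pass, with a median log2 fold change of 1.10. Among the 8 that passed the filter through the other singlets, 4 were higher, with a median of 0.85. These proteins take part in detecting viral or misplaced RNA and DNA, and some of them start interferon production. Ifih1 (MDA5) rose by 3.34 ± 0.30, Ddx58 (RIG-I) by 2.81 ± 0.28, Dhx58 (LGP2) by 4.01 ± 0.41 and Zbp1, a sensor of Z-form nucleic acid, by 6.01 ± 0.50. Dhx58 and Zbp1 had passed the filter only through the selected cells. Ifih1 stood at 848 CPM in Oil3 and at no more than 275 CPM elsewhere. Tlr3, the endosomal receptor for double-stranded RNA, was called at 1.22 ± 0.25 and Aim2, a DNA sensor, at 0.71 ± 0.18, but neither call held without Oil3 (0.83, adjusted p = 0.14 and 0.58, adjusted p = 0.12), and that of Aim2 was also lost with TMM over all genes (0.47, adjusted p = 0.12). Tmem173, which encodes STING, and Tlr7 did not pass, with log2 differences of -0.07 ± 0.20 and 0.03 ± 0.20.

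Feedback inhibitors gave 1 call among 4 genes tested. Trim30a, which restrains Toll-like receptor signalling, ran from 631 through 834 to 1097 UPM against 108, 131 and 152, a log2 fold change of 2.73 ± 0.16. Ptpn2 and Pias1 had log2 differences of 0.54 ± 0.38 and -0.23 ± 0.21 and did not pass. Socs1, too low to test, had 8 UMIs in 7 selected cells and 143 UMIs in 139 others.

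Antigen presentation through MHC class I moved widely and by smaller folds. Of 19 class I and immunoproteasome genes tested, 14 were higher and 5 did not pass, with a median log2 fold change of 1.21. Of the 17 that passed the filter through the other singlets, 12 were higher, with a median of 1.15. B2m, the shared light chain, ran from 1472 through 1794 to 2774 UPM against 998, 1053 and 1131, a log2 fold change of 0.87 ± 0.11 with no overlap. H2-K1 and H2-D1, the classical heavy chains, rose by 1.57 ± 0.16 and 1.51 ± 0.15, and Tap1, which pumps peptides, by 2.08 ± 0.37. Nlrc5, the class I transactivator, was called at 4.83 ± 0.33 and had passed the filter only through the selected cells. H2-T24 rose by 2.07 ± 0.35, and the values of H2 genes are uncertain because copies share sequence. Tap2 (1.003 ± 0.34, adjusted p = 0.096) and Tapbp (0.44 ± 0.27) did not pass. None of 4 MHC class II genes tested passed, among them Cd74 (0.82 ± 0.76), H2-DMa (-0.09 ± 0.25) and H2-Ab1 (-0.08 ± 0.59). Without Oil3, Cd74 stood at -0.10 (adjusted p = 0.98), and in cells with 6 or more summed UMIs it was called at 1.33 (adjusted p = 0.017). Cd74 ran from 0 to 323 UPM in the selected cells of the 8 hashtags in the fit, but stood at 15318 UPM in Oil5 and 12029 in TAM2, in the 2 cells with macrophage markers, and H2-Ab1 at 6987 and 8511. With all 10 hashtags, Cd74 stood at 2.83 ± 1.27 and H2-Ab1 at 3.11 ± 1.40 (adjusted p = 0.44 for both).

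All 8 guanylate-binding and immunity-related GTPases tested were higher, with a median log2 fold change of 2.31. The 7 that passed the filter through the other singlets had a median of 2.27. These enzymes attack membranes that enclose microbes. Irgm1 rose by 2.94 ± 0.32, Igtp by 2.81 ± 0.33, Gbp2 by 3.85 ± 0.46 and Gbp3 by 2.27 ± 0.46. Gbp2 had passed the filter only through the selected cells. Irgm2 was called at 1.55 ± 0.27 and Gbp5 at 2.23 ± 0.41, but Gbp5 lost its call with DESeq2 (1.74, adjusted p = 0.0997) and without Oil3 (1.22, adjusted p = 0.42), where it stood at 402 CPM against at most 122 CPM elsewhere. Without Oil3, 5 of the 8 genes passed.

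Among 5 chemokine genes tested, Ccl12, Ccl2 and Cxcl16 were higher. Of the 4 chemokine genes that passed the filter through the other singlets, 2 were higher. Ccl12, a ligand of the receptor Ccr2, was the most abundant of the higher genes and had 886, 1551 and 5476 UPM at its lowest, median and highest hashtag, against 38.4, 60.3 and 71.3. Its log2 fold change was 5.01 ± 0.47 (n = 8 hashtags, edgeR adjusted p = 9.0e-04), and 46 of 61 selected cells held it, 1 of them with 159 UMIs. Ccl2 rose by 3.54 ± 0.34 and had passed the filter only through the selected cells, and Cxcl16 by 1.66 ± 0.32. Ccl4 (0.32 ± 0.88) and Ccl3 (-2.34 ± 0.86, adjusted p = 0.16) did not pass. Without Oil3 both passed as lower, Ccl4 at -2.06 (adjusted p = 0.0059) and Ccl3, which then had no UMI in the selected cells, at an adjusted p of 0.015. Ccl4 was also lower in cells with 4 to 9 summed UMIs (-2.51, adjusted p = 0.037). Cxcl10, too low to test and named after its values were seen, had 118 UMIs in 7 selected cells of 4 hashtags, 60 of them in a single Oil3 cell, and 31 UMIs in 14 others.

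Microglial identity genes changed little on the main scale. Of 20 homeostatic genes 1 was lower, Entpd1 or CD39, which degrades extracellular ATP (-0.50 ± 0.13, adjusted p = 0.0085), and 19 did not pass. With TMM over all tested genes 13 of the 20 were lower, so their number depends on the scaling. Gpr34 (-0.34 ± 0.11, adjusted p = 0.057), Mef2c (-0.34 ± 0.11, adjusted p = 0.067), Cx3cr1 (-0.30 ± 0.10, adjusted p = 0.13) and P2ry12 (-0.18 ± 0.10, adjusted p = 0.52) did not pass. The median over the list was -0.17, against -0.05 over all genes.

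Of 16 disease-associated microglia genes tested, 4 were higher and 12 did not pass, at a median of 0.25. Among the 14 that passed the filter through the other singlets, 3 were higher, at a median of 0.16. Axl, a receptor that clears dying cells and dampens interferon signalling, rose by 3.93 ± 0.40, Csf1, a microglial growth factor, by 2.44 ± 0.38 and Cd52, a small surface glycoprotein, by 1.33 ± 0.18. Axl had passed the filter only through the selected cells. Fth1, the ferritin heavy chain, had a log2 difference of 0.47 ± 0.10 (adjusted p = 1.8e-04) but missed the threshold with TMM over all genes (0.23, adjusted p = 0.23). In cells with 4 to 9 summed UMIs it stood at -0.03 (adjusted p = 0.99). The lipid carrier Apoe had a wide spread, at 345 to 2239 CPM in selected cells and 307 to 741 CPM in the others, and did not pass (0.84 ± 0.41, adjusted p = 0.58). This rests on the robust prior. Apoe was called in the non-robust fit (0.84, edgeR adjusted p = 1.8e-08) and in the fit first planned (0.59, edgeR adjusted p = 6.9e-04).

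Among 14 immediate early genes, which answer within minutes to stimulation, 2 were lower and none higher, with a median of -0.46. Junb was lower with a log2 difference of -0.92 ± 0.22 (adjusted p = 0.0016, but 0.061 with DESeq2) and Btg2 with one of -0.70 ± 0.18 (adjusted p = 0.0051). Btg2 missed the threshold without Oil3 (-0.55, adjusted p = 0.14) or TAM5 (-0.60, adjusted p = 0.055) and with DESeq2 (-0.76, adjusted p = 0.13). Klf4 had no UMI in the selected cells of the fit and 16.1 CPM in the others, and did not pass (adjusted p = 0.15). None of 11 inflammatory and NF-kB genes passed, including Relb (1.13 ± 0.41), Icam1 (0.75 ± 0.30), Tnf (1.17 ± 0.52) and Nfkbiz (0.59 ± 0.37). Tnf stood at -0.37 without Oil4 (adjusted p = 0.97), and was called at 1.78 (adjusted p = 0.026) in cells with 6 or more summed UMIs. None of 8 p53 targets and none of 5 cell cycle genes passed, with Cdkn1a at 0.90 ± 0.36 (adjusted p = 0.24) and Pcna at 0.14 ± 0.43.

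Outside all lists, 132 genes were higher and 35 lower. Rnf213, a giant ubiquitin ligase, rose from 48.8 to 69.7 UPM in the others to 382 to 1290 in the selected cells, a log2 fold change of 3.57 ± 0.19. Fcgr1, the high-affinity IgG receptor, rose by 1.57 ± 0.15, Ly6e, a surface protein that limits coronavirus entry, by 1.21 ± 0.12, and Clec2d, a C-type lectin, by 3.21 ± 0.32. Samhd1, which destroys deoxynucleotides, rose by 2.15 ± 0.23 and Zc3hav1, which binds CpG-rich viral RNA, by 2.02 ± 0.22. Ly6a (4.94 ± 0.35), Fgl2 (4.44 ± 0.38) and Trim30b (3.99 ± 0.39) were also called, each having passed the filter only through the selected cells, and Trim30c (3.33 ± 0.34) was called too. Trim30 copies share sequence, so their separate values are uncertain. Plac8, listed as a monocyte marker, was called at 2.97 ± 0.51 but was higher in 5 and lower in 3 of 8 hashtags.

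Lower genes changed by small steps. Nav2, a neuron navigator protein, had a log2 difference of -0.71 ± 0.11 (adjusted p = 2.9e-08), from 1807 to 2132 UPM in the others to 602 to 1711 in the selected cells, without overlap. Numb, an inhibitor of Notch, had one of -0.68 ± 0.14 and was lower in 8 of 8 hashtags. Zdhhc14 (-1.23 ± 0.27), Bank1 (-1.15 ± 0.25) and Slc40a1, the iron exporter (-1.24 ± 0.31), were also lower, in 8, 7 and 7 of 8 hashtags. Without TAM5, where it was higher, Slc40a1 stood at -1.92 (adjusted p = 7.1e-05), and it missed the threshold with DESeq2 (-1.45, adjusted p = 0.059). Csmd3 was called at -0.37 ± 0.09 but was lower in 5 of 8 hashtags only, and missed the threshold without TAM4 (-0.29, adjusted p = 0.091) or TAM5 (-0.33, adjusted p = 0.0728) and with DESeq2 (-0.37, adjusted p = 0.15).

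Slfn5, Oasl2, Irf7 and Ccl12 followed the summed UMIs of the selecting genes also below the threshold, but not every gene did. Slfn5 stood at 2.16 UPM in the 7355 cells with none, 18.2 in the 408 cells with 1, and 804 in the 12 cells with 20 or more. Oasl2 stood at 1.80, 15.1 and 541. B2m went from 1045 to 2470 and Ccl12 from 54.1 to 5599 over the same range. B2m did not climb at every step, at 1735 with 2 or 3 summed UMIs and 1528 with 4 or 5. Ifi27l2a stood at 253 and 86.8 in the same groups. The 20 homeostatic genes together went from 69880 UPM at none to 69473 at 4 or 5, 58025 at 6 to 9 and 57125 at 20 or more. The 10 microglial markers went from 21186 at none to 14471 at 20 or more. The median depth of these groups of cells lay between 4727 and 6077 UMIs. These are levels of pooled cells, with no test. When only the 36 selected cells with 4 to 9 summed UMIs were kept, 79 genes passed, 77 of them higher, and 33 of 41 antiviral effectors were among those. Other lists held less well, with 6 of 18 class I and immunoproteasome genes and 2 of 7 GTPases higher. Of 47 named calls with a value in this smaller set of cells, 24 were kept. No call of a lower gene was kept.

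**Figure D4:**
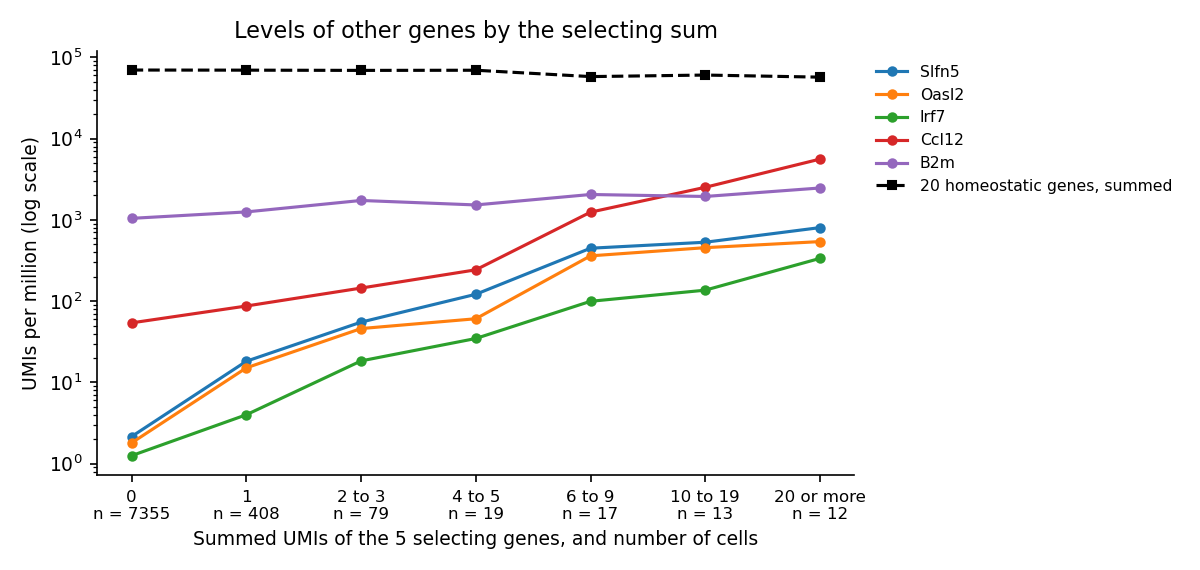
UPM (log scale) of 5 genes and of 20 homeostatic genes summed, in singlets grouped by the summed UMIs of the 5 selecting genes; the number of cells stands under each group. Slfn5, Oasl2, Irf7 and Ccl12 climb at every step, and the homeostatic sum stays between 57125 and 69880.

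The selected cells also lay near each other by their other genes. In a space of 30 principal components over 2000 variable genes without the 5 selecting genes, 54.1% of the 15 nearest neighbours of a selected cell were selected cells, against 0.16% for the other singlets. With all genes of the interferon lists left out as well, the share was 22.95%, against 0.33%. For the 25 cells with 10 or more summed UMIs it was 82.4% and 40.3%, and for the 36 weaker ones 34.4% and 10.9%. This is a description of how the cells lie, since genes that move with the selecting genes remain in that space.

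The share of selected cells was compared between oil and TAM, since the selection had not used the treatment. It was 0.708% in Oil1 (5 of 706 singlets), 0.776% in Oil2 (5 of 644), 0.879% in Oil3 (8 of 910), 0.756% in Oil4 (6 of 794) and 0.119% in Oil5 (1 of 838). It was 0.806% in TAM1 (7 of 869), 0.323% in TAM2 (2 of 619), 1.07% in TAM3 (10 of 935), 0.742% in TAM4 (6 of 809) and 1.41% in TAM5 (11 of 779). The 2 treatments overlapped, and each share rests on at most 11 cells, with an exact interval for TAM5 of 0.707 to 2.51% that covers counting error only. The means were 0.648 ± 0.302% (SD, n = 5) in oil and 0.870 ± 0.404% (SD, n = 5) in TAM, a difference of 0.223 percentage points (exact two-sided permutation test, p = 0.341, with 0.00794 the smallest p possible). Without Oil5 the difference was 0.0905 points (p = 0.667, exact permutation test), without TAM5 0.0872 (p = 0.667) and without TAM2 0.359 (p = 0.127). Without the cells that held 3 or more macrophage markers, an alternative chosen after seeing the data that left 59 selected cells, it was 0.215 points (p = 0.397, exact permutation test). Read from the level of Xist, 4 hashtags were male and 6 female, and TAM minus oil was -0.178 points in males and 0.490 in females. These 2 differences differed by 0.668 points (permutation of treatment within sexes, p = 0.15). The design thus shows no difference in share beyond the spread between hashtags, which does not show that the shares are equal.

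**Figure D5:**
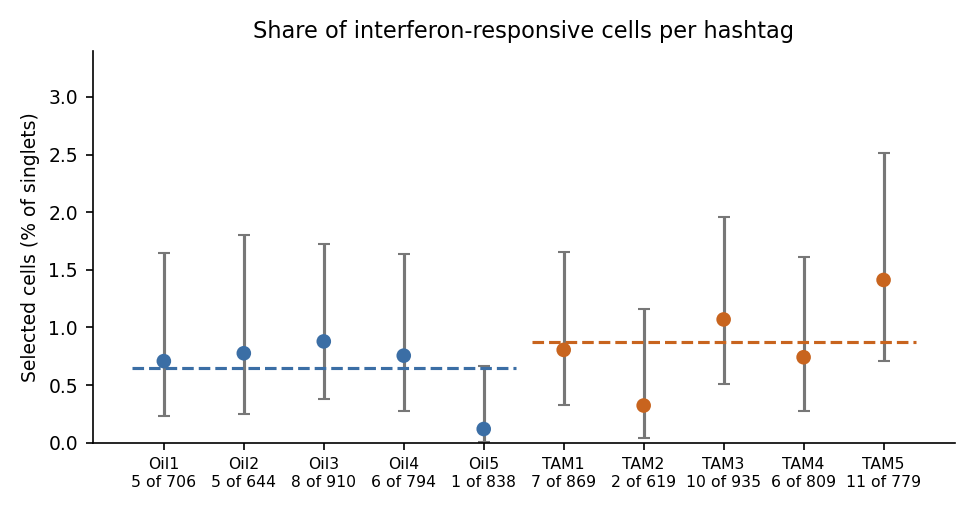
Selected cells as a percentage of singlets in each hashtag, with exact 95% intervals for counting error; dashed lines are the means of 5 oil (blue) and 5 TAM (orange) hashtags. The shares run from 0.119% in Oil5 to 1.41% in TAM5, and the treatments overlap.

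Below the threshold, the summed level of the selecting genes in the other singlets was 14.0 ± 2.96 UPM in oil and 15.7 ± 1.95 in TAM (SD, n = 5 each). These levels are cut off by the selection and are given as a description, so no test of them is reported here. Over all singlets, selected cells included, they were 35.6 ± 19.3 in oil and 33.8 ± 9.13 in TAM. The highest hashtag there was Oil3 with 67.1 UPM and the lowest Oil5 with 17.9.

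Within the selected cells, 1 of 693 genes tested (0.144%) differed between 4 TAM and 4 oil hashtags by edgeR's quasi-likelihood test, and 42 had an unadjusted p under 0.05. This was Jun, an AP-1 factor of the immediate early response, which was lower in TAM with a log2 difference of -2.34 ± 0.37 (adjusted p = 0.0017). Its levels in selected cells were 1473, 955, 473 and 964 UPM in Oil1, Oil2, Oil3 and Oil4, and 281, 174, 135 and 134 in TAM1, TAM3, TAM4 and TAM5, without overlap. In the other singlets of the same hashtags Jun stood at 1768, 1402, 1069 and 842 in oil and at 527, 217, 198 and 167 in TAM, so TAM was lower there too. The 2 hashtags left out of the fit overlapped, with Jun at 512 in Oil5 and 416 in TAM2 in the other singlets. Whether the difference in the selected cells differs from that in the others was not tested.

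No interferon-stimulated gene passed between the treatments within the selected cells. Of 24 antiviral effectors tested, 20 stood lower in TAM and 4 higher, with a median log2 difference of -0.28 against 0.01 over all 693 genes. This count rests on Oil3, without which 12 stood lower and 11 higher, with a median of -0.02. H2-K1 had 683, 1035, 989 and 653 UPM in Oil1 to Oil4 and 514, 382, 575 and 497 in TAM1, TAM3, TAM4 and TAM5. The groups did not overlap, but the difference of -0.78 ± 0.25 did not pass (adjusted p = 0.53). Over all 693 genes, TAM lay wholly below oil in 14 and wholly above it in 8. Znfx1, an RNA helicase, stood at -0.96 ± 0.31 (adjusted p = 0.53), Ccl12 at -1.22 ± 0.47 (adjusted p = 0.70), Ifi204 at -0.82 ± 0.38 (adjusted p = 0.70) and Apoe at -1.55 ± 0.41 (adjusted p = 0.53). Without Oil3, Ifi204 stood at -0.11. Slfn5 (-0.18 ± 0.39), Oasl2 (-0.40 ± 0.45), B2m (-0.15 ± 0.20) and Ifitm3 (0.25 ± 0.42) differed by no more than about their errors. The selected cells of a hashtag are 5 to 11 cells, and fewer responding cells and less RNA per cell cannot be told apart in their sums.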

How the data were processed

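The deposited matrix holds raw UMI counts per gene and hashtag, made by the authors with Cell Ranger 7 per the submitters' processing notes. Barcodes with at least 500 genes, 1000 gene UMIs and at most 10% mitochondrial UMIs were kept (9760 of 9975). Hashtags were assigned with Seurat 5.3.0 HTODemux (quantile 0.99). The median depth was 4919 UMIs per singlet. Counts summed per hashtag were tested with edgeR 4.0.16 (quasi-likelihood, Benjamini-Hochberg threshold 0.05, hashtag as a block for selected against other cells), and DESeq2 1.42.0 was an alternative. After results had been seen, and after a test on simulated data, TMM factors were taken over genes of at least 500 CPM and a robust prior was added, in place of the fit first planned. UPM levels are pooled UMIs per 1000000, CPM uses edgeR's scaling, and ± after a fold change is its standard error. Shares were compared by exact permutation. The sexes were read from Xist only, although Y-linked genes had been planned too. The selected cells, gene lists and the rule for named genes (smallest p per list, then outside the lists) were chosen with earlier results of these data known, and genes named outside that rule are marked as such or serve a marker list. Alternatives included other scalings, filters, thresholds, depth matching and leaving out each hashtag. Results of some genes are not reported here.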

Additional observations from a re-analysis of the deposited data

Results flagged for a closer look

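Of 60 groups of hashtags examined, those below had 1 value far from the rest. By chance the rule flags about 1 in 20 groups of independent, normally distributed values. Of the groups, 56 are levels of called genes in the same hashtags, so that rate need not hold for them. The share of selected cells was 0.119% in Oil5, and the nearest oil hashtag had 0.708%. In the selected cells of Oil3, Ifi204 stood at 1473 CPM (next hashtag 612), Ifih1 at 848 (275), H2-D1 at 1294 (826), Samhd1 at 669 (342) and Irgm1 at 402 (218). B2m stood at 2879 CPM in Oil3 (next 2049), Gbp5 at 402 (122) and Tlr3 at 536 (266). Btg2 stood at 1101 CPM in Oil1 (next 428) and Irf8 at 1213 CPM in TAM4 (next 667). Among hashtag doublets, which entered no comparison, 1.34% held 4 or more UMIs of the selecting genes.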

How the results depend on the processing

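Selected against other cells gave 250 genes. The count was 429 with TMM over all tested genes, 440 with the fit first planned, 155 (97 higher) of 1902 genes against the 5 other singlets nearest in depth, and 79 in cells with 4 to 9 summed UMIs. Leaving out each hashtag gave 192 (without Oil3) to 250. Calls were 84.4% higher, against 38.2% with TMM over all genes, 38.4% in the fit first planned, 96.6% with DESeq2 (267 genes), 62.6% at matched depth and 97.5% in the weaker cells. Fth1 changed sign in the weaker cells (-0.034, adjusted p = 0.99 by edgeR). The cause was not tested for these. Of 56 called genes named, 53 kept their call with TMM over all genes, 49 with DESeq2 (all but Gbp5, Junb, Slc40a1, Csmd3, Btg2, Irf8 and Ifngr1) and 56 with library size alone. Without the hashtag block 313 genes passed. Alternatives chosen after seeing the data were TMM over all genes, the fit first planned, the non-robust fit (258), the weaker cells, cells with under 3 macrophage markers (249, which removed 5 other singlets and no selected cell) and all 10 hashtags (242).

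Within the selected cells TAM against oil gave 1 gene, 7 with no filter, 2 with sex as a covariate, 3 with the replicate block and 1 to 3 without each hashtag (3 without Oil2, 2 without TAM1). In the selected-cell sums, same-numbered hashtags correlated at 0.123, -0.03 and 0.03. Sums of so few UMIs cannot show whether the numbers pair hashtags, and same-numbered hashtags were of the same sex. The difference in share kept its sign and missed the threshold in every alternative run, at 0.0872 to 0.359 points without each hashtag and with p = 0.625 in the exact paired test with the replicate block. With a top hashtag of at least 80% it was 2.02 points over 18 selected cells (exact permutation p = 0.183). Depth limits low genes: a selected-cell sum of 25131 UMIs holds few molecules of a gene near the filter of 6.03 CPM.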
